A study of Mus musculus with 9 samples.

Results

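Chemokine ligands are small secreted proteins that guide leukocytes, and 10 of them are described here in pre-cDCs, the committed progenitors of conventional dendritic cells (cDCs). The genes Ccl5, Ccl3, Ccl4, Ccl6, Ccl9, Ccl17, Ccl22, Cxcl9, Cxcl10 and Cxcl16 were chosen by symbol and make up 10 of the 51912 genes in the count table. All 10 were found by symbol, each with a single identifier. Pre-cDCs were sorted from mixed BM chimeras, in which lethally irradiated CD45.1/2 mice had received donor BM of both genotypes, WT marked by CD45.1 on the BL/6 background and DNGR-1 KO marked by CD45.2 and homozygous for Clec9aCre (Clec9aCre/Cre), so both genotypes came out of the same kind of irradiated host. The groups were WT BM (3 samples), DNGR-1 KO BM (3 samples), WT spleen (1 sample) and DNGR-1 KO spleen (2 samples). Each sample pooled the cells of a pair of mice, and each chimera held cells of both genotypes. By the paper's total of mice, there were too few for separate pairs, so some samples share mice. The labels do not say which samples do, and the main tests treated the samples as independent. Spleen comparisons of genotype rest on a single WT library. Both Clec9a alleles are disrupted in the KO cells in every cell type, and recipient cells that survive irradiation carry CD45.1 as well as CD45.2. Ages of the mice were not given in the labels.

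Chemokines fall into the CC and CXC families by the first cysteines of the mature protein, which are adjacent in CC ligands and separated by another residue in CXC ligands. Ccl3, Ccl4 and Ccl5 are made by activated T cells, NK cells and myeloid cells and draw other leukocytes to sites of inflammation. Ccl6 and Ccl9 are mouse CC chemokines of myeloid cells that act through Ccr1. Ccl17 and Ccl22, typical products of mature or migratory dendritic cells, bind Ccr4. Cxcl9 and Cxcl10 are interferon-induced ligands of Cxcr3, and Cxcl16 is a transmembrane ligand of Cxcr6.

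The coding stretch around the first cysteines is shown for 6 of the members, to place each in its family. The letters run 5′ to 3′ on the coding strand of GRCm38 (GENCODE M21 transcripts), and capitals mark the 2 cysteine codons.
Ccl5 (chr11:83529227-83529262, minus strand): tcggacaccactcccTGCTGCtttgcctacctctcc
Ccl4 (chr11:83663467-83663502, plus strand): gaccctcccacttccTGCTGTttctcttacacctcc
Ccl6 (chr11:83589371-83589406, minus strand): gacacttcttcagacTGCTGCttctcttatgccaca
Ccl9 (chr11:83575911-83575946, minus strand): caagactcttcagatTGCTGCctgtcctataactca
Cxcl9 (chr5:92326827-92326865, minus strand): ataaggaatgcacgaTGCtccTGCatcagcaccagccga
Cxcl16 (chr11:70459112-70459150, minus strand): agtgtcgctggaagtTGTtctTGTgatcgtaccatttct
The CC members have the codons side by side, and both CXC members have a codon between them. Ccl5, Ccl9, Ccl6, Ccl3 and Ccl4 lie in this order on chromosome 11, from 83525778 to 83664683. Cxcl9 (92321347 to 92328079) and Cxcl10 (92346638 to 92348889) are neighbours on chromosome 5, and Ccl22 (94745590 to 94751699) and Ccl17 (94810453 to 94812036) on chromosome 8. The coding sequences of Ccl6 and Ccl9 were 68.4% identical over 342 aligned bases, with a longest shared run of 25 bases between their transcripts. For Ccl3 and Ccl4 the identity was 67.0% over 273 bases, with a longest shared run of 9 bases. Reads of close relatives can be divided by an expected-count method, and those of Ccl6 and Ccl9 are named here for that reason. Exons of Cxcl16 overlap Zmynd15, and exons of Cxcl10 overlap Art3, both on the opposite strand.

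The libraries held 17103806 to 23722298 counts, so 3 counts, the limit taken for detection, stood for 0.127 to 0.179 CPM (counts per 1000000 of a library's total after TMM scaling). Clec9a, which encodes DNGR-1, was counted 905 to 1766 times in WT BM and 2459 times in WT spleen, and 0 or 1 time in every DNGR-1 KO sample. The pre-cDC markers Flt3 (4736 to 11117 counts) and Spn, which encodes CD43 (1657 to 3531 counts), were present in all 9 samples. The gate excluded CD3, yet all 8 T cell markers exceeded 3 counts in each spleen library, summing to 863 CPM in WT spleen and to 1225 and 3481 CPM in DNGR-1 KO spleen, against 0.987 to 4.38 CPM in BM. Neutrophil markers went the other way, from 859 to 2762 CPM in BM to 0 to 1.06 CPM in spleen. Mpo alone was at 695 to 2101 CPM in BM, while Ly6g, another of these markers, had 0 to 19 counts there. B cell markers summed to 724 to 1401 CPM across the samples, with 12059 to 27893 counts of Ighm and 576 to 1164 of Cd79b, while Pax5, the B cell transcription factor, did not exceed 3 counts. Ms4a1, which encodes CD20, had 213 and 222 counts in DNGR-1 KO spleen and at most 1 count elsewhere. In bulk samples such as these, fewer cells of a type and less RNA per cell cannot be told apart.

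**Figure D1:**
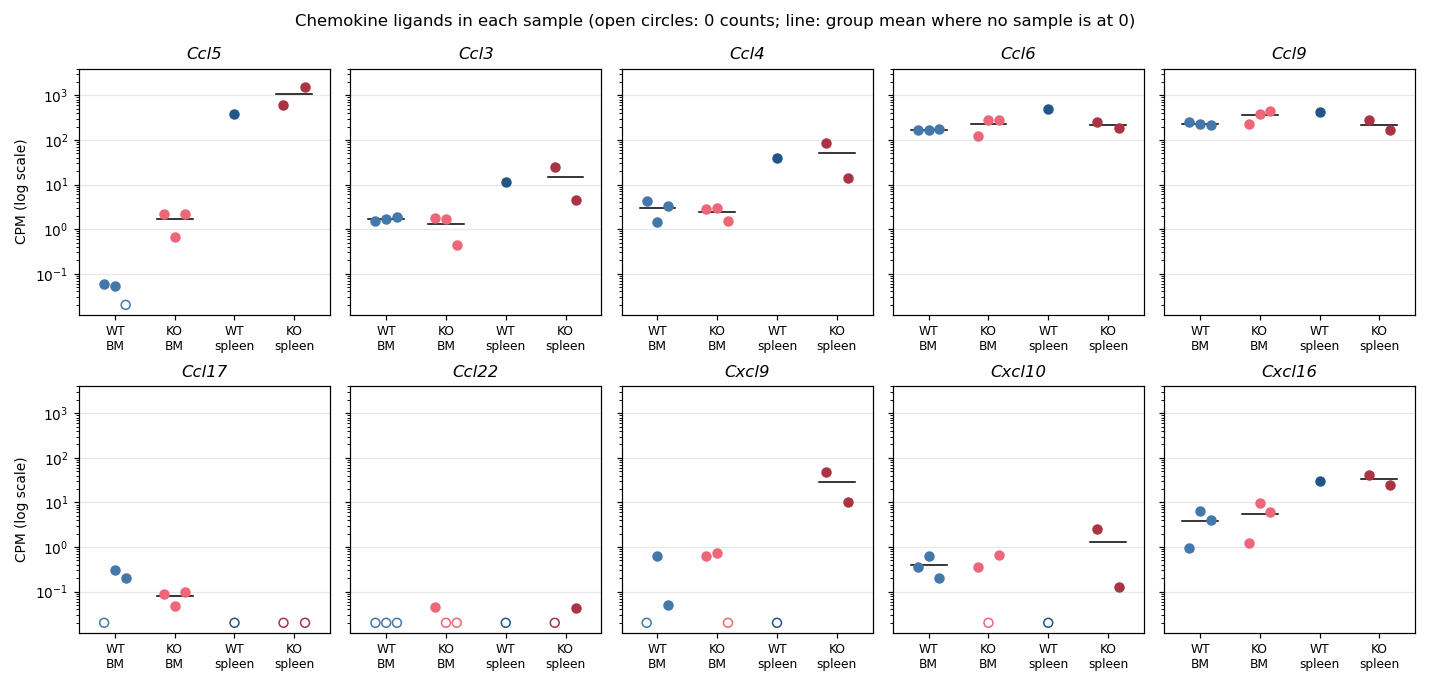
Level of each chemokine ligand in each of the 9 samples, in CPM on a log scale, with open circles for samples at 0 counts and a line for the mean of groups with no sample at 0. Ccl6 and Ccl9 were above 100 CPM in all samples, Ccl5 spanned from 0 counts in WT BM to 1509 CPM in DNGR-1 KO spleen, and Ccl17 and Ccl22 stayed under 0.32 CPM.

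Ccl6 and Ccl9 were the most abundant of the 10 members in BM pre-cDCs. Per kilobase of exon, a scale on which genes can be compared, Ccl6 was at 95.3 ± 3.29 CPM (SD, n = 3) in WT BM and 125 ± 49.4 (n = 3) in DNGR-1 KO BM. Ccl9 was at 76.5 ± 7.32 and 117 ± 36.4 CPM per kilobase in the same groups. Of the other members, Ccl4 came next with 4.58 ± 2.19 CPM per kilobase in WT BM and 3.66 ± 1.20 in DNGR-1 KO BM. Together Ccl6 and Ccl9 made up 97.2% to 98.5% of the CPM summed over the 10 members in each BM sample.

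Ccl6 was counted 2866, 3177 and 3476 times in WT BM, 2736, 5672 and 5485 times in DNGR-1 KO BM, 8112 times in WT spleen, and 4594 and 4290 times in DNGR-1 KO spleen. In CPM these were 171, 165 and 177 in WT BM, 122, 277 and 275 in DNGR-1 KO BM, 483 in WT spleen, and 258 and 182 in DNGR-1 KO spleen. A pair of DNGR-1 KO BM samples lay above all WT BM samples and the remaining one below them, so the BM groups overlapped. WT spleen was the highest sample, and both DNGR-1 KO spleen samples were lower than it, at 0.534 and 0.376 times its level.

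Ccl9 was counted 4285, 4440 and 4169 times in WT BM, 5227, 7788 and 8994 times in DNGR-1 KO BM, 7158 times in WT spleen, and 4967 and 3893 times in DNGR-1 KO spleen. Its levels were 256, 231 and 212 CPM in WT BM, 234, 380 and 451 CPM in DNGR-1 KO BM, 426 CPM in WT spleen, and 279 and 165 CPM in DNGR-1 KO spleen. As for Ccl6, the BM groups overlapped and the DNGR-1 KO spleen samples lay below the WT spleen sample, at 0.654 and 0.387 times its level. Within a library, Ccl9 had 1.199 to 1.91 counts for each count of Ccl6 in BM and 0.882 to 1.08 in spleen. The order of the group means was WT spleen, DNGR-1 KO BM, WT BM and DNGR-1 KO spleen for Ccl9, and no neighbours in this order had ranges apart.

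Ccl5 was nearly absent from WT BM pre-cDCs and was the most abundant member per kilobase of exon in spleen. It was counted 1, 1 and 0 times in WT BM and 50, 14 and 43 times in DNGR-1 KO BM. Spleen counts of Ccl5 reached 6296 in WT and 11012 and 35623 in DNGR-1 KO. In CPM the DNGR-1 KO BM samples were at 2.24, 0.683 and 2.16, the WT spleen sample at 375, and the DNGR-1 KO spleen samples at 618 and 1509. The 4 groups did not overlap, in the order DNGR-1 KO spleen, WT spleen, DNGR-1 KO BM and WT BM. In spleen this sets 2 samples against 1, and the share of all genes that lay apart in this way was not computed. Per kilobase of exon, Ccl5 ranked first of the 10 members in each spleen sample and between ranks 4 and 9 in the BM samples. It made up 27.5% of the summed CPM of the members in WT spleen and 45.5% and 79.0% in DNGR-1 KO spleen, against at most 0.612% in any BM sample.

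**Figure D2:**
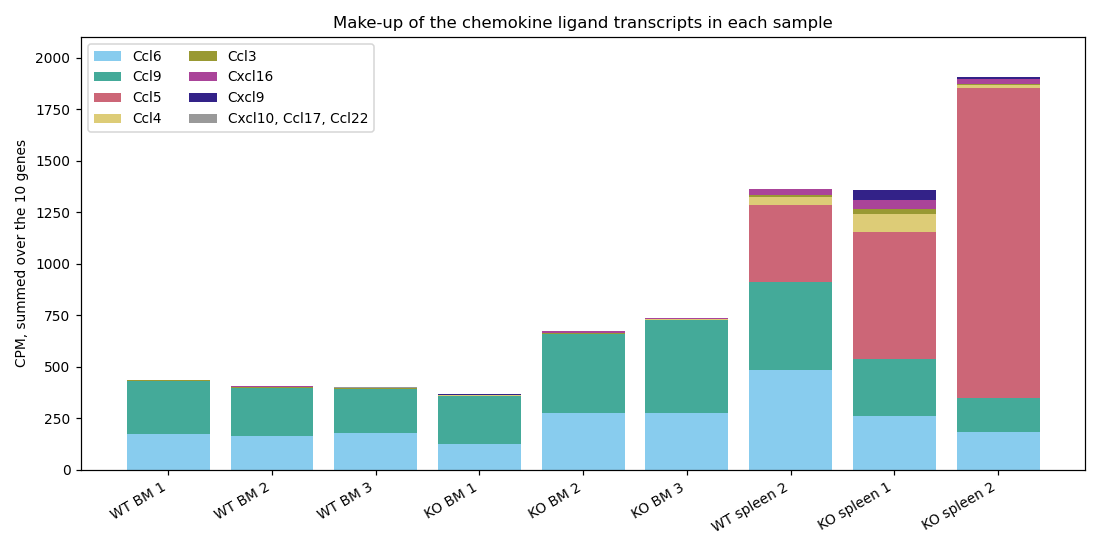
CPM summed over the 10 chemokine ligands in each sample, as bars from 0 divided by gene. The sum ran from 365 to 737 CPM in BM, nearly all of it Ccl6 and Ccl9, and from 1358 to 1909 CPM in spleen, where Ccl5 made up 27.5% to 79.0%.

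The groups of Cd3d and Cd8b1, genes of T cells, stood in the same order as those of Ccl5. Cd3d, a subunit of the T cell receptor complex, was counted 1, 1 and 0 times in WT BM, 9, 6 and 7 times in DNGR-1 KO BM, 1539 times in WT spleen, and 2576 and 10145 times in DNGR-1 KO spleen. Cd8b1, the beta chain of CD8, was at 0 in all 3 WT BM samples, at 10, 5 and 18 counts in DNGR-1 KO BM, at 2768 in WT spleen, and at 5361 and 17280 in DNGR-1 KO spleen. Ccl5 had 2.05 to 2.27 counts for each count of Cd8b1 in the spleen libraries and 2.39 to 5.0 in the DNGR-1 KO BM libraries. Cd8b1 was named after its values were seen and was the gene nearest to Ccl5 over these samples. A narrow range of this ratio therefore follows from the choice. Within DNGR-1 KO BM, Cd8b1 was highest in replicate 3 and Ccl5 in replicate 1. All 8 T cell markers were called higher in spleen (edgeR's quasi-likelihood test, adjusted p under 0.05), against 7.28% of all genes tested. So were 6 of the 6 NK cell markers tested. All of these but Cd5, Klrd1 and Nkg7 passed the filter on low counts only through spleen, where they were high. Klrb1c and Ncr1, the NK cell markers not tested, had 0 counts each in WT spleen. In DNGR-1 KO spleen Klrb1c had 266 and 0 counts and Ncr1 281 and 253. In BM the summed T cell markers were at 0.987 to 3.05 CPM in WT and 3.61 to 4.38 CPM in DNGR-1 KO, and 7 of the 8 were too low to be tested for genotype. The markers did not move alike there, as Cd5 had 50, 13 and 47 counts in WT BM against 29, 64 and 38 in DNGR-1 KO BM, and Trac 0, 0 and 4 against 19, 0 and 0. In spleen Cd3e had 955 counts in WT and 995 and 8622 in DNGR-1 KO. NK cell markers summed to 46.8 to 108 CPM in BM and to 798 to 2091 CPM in spleen, and Ccl5 had 1.44 to 1.995 counts for each count of Nkg7, a gene of cytotoxic granules, in spleen against 0.0483 to 0.105 in DNGR-1 KO BM. The part of T and NK cells in the Ccl5 values was not tested.

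Ccl3 and Ccl4 were low in BM and higher in spleen. Ccl3 was counted 26, 32 and 37 times in WT BM and 40, 35 and 9 times in DNGR-1 KO BM. Spleen counts of Ccl3 were 187 in WT and 449 and 107 in DNGR-1 KO. These were 0.451 to 1.88 CPM in BM against 11.1 CPM in WT spleen and 25.2 and 4.53 CPM in DNGR-1 KO spleen, so the tissues did not overlap while the genotypes did.

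Ccl4 was counted 72, 28 and 65 times in WT BM, 63, 60 and 30 times in DNGR-1 KO BM, 663 times in WT spleen, and 1561 and 326 times in DNGR-1 KO spleen. Its levels were 1.45 to 4.31 CPM in BM, 39.5 CPM in WT spleen, and 87.6 and 13.8 CPM in DNGR-1 KO spleen. The DNGR-1 KO spleen samples lay on either side of the WT sample for both genes, at 2.26 and 0.407 times its level for Ccl3 and at 2.22 and 0.350 times for Ccl4. In the spleen libraries Ccl4 had 3.05 to 3.55 counts for each count of Ccl3, a narrower range than the 0.875 to 3.33 of the BM libraries, in which Ccl3 counts were few. Ccl3 and Ccl4 did not follow Ccl5 in spleen, as the DNGR-1 KO sample with the most Ccl5 (replicate 2) had the least Ccl3 and Ccl4.

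Markers of cDC1, the differentiated cDCs that express DNGR-1 most, moved with Ccl3 and Ccl4 across the spleen samples. The 5 cDC1 markers summed to 240 CPM in WT spleen and to 628 and 105 CPM in DNGR-1 KO spleen, against 9.12 to 57.9 CPM in BM. Xcr1, the receptor of Xcl1 and a defining cDC1 gene, was at 105 CPM in WT spleen and at 175 and 38.3 CPM in DNGR-1 KO spleen, and Ccl4 had 0.3602 to 0.502 counts for each count of Xcr1 there. In BM the same ratio ran from 0.224 to 3.27. The ratio was taken for Xcr1 alone, and other cDC1 markers changed by different amounts between the spleen samples. Cadm1 was at 59.7 CPM in WT spleen and at 80.1 and 21.5 CPM in DNGR-1 KO spleen. Itgae was at 18.3 CPM in WT spleen and at 144 and 14.4 CPM in DNGR-1 KO spleen. Of the 5 markers, Xcr1, Cadm1 and Itgae were higher in spleen (edgeR's quasi-likelihood test, adjusted p of 0.00331, 0.00181 and 0.00303). The part of cDC1s in the Ccl3 and Ccl4 values was not tested. Of the remaining marker lists, 4 of 7 macrophage genes tested were called higher in spleen, while 7 of 7 neutrophil, 3 of 4 basophil or mast cell, 2 of 3 megakaryocyte, 1 of 5 plasmacytoid DC and 1 of 6 pre-cDC genes were called lower. Of 5 cDC2 genes 1 was called higher and 1 lower, and of 2 B cell genes tested none was called. Of all genes tested, 7.28% were called higher in spleen and 12.3% lower. The neutrophil, basophil or mast cell and megakaryocyte genes called lower had at most 17 counts in any spleen library. They passed the filter on low counts only through BM, where they were high. In BM no gene of any marker list was called for genotype.

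**Figure D3:**
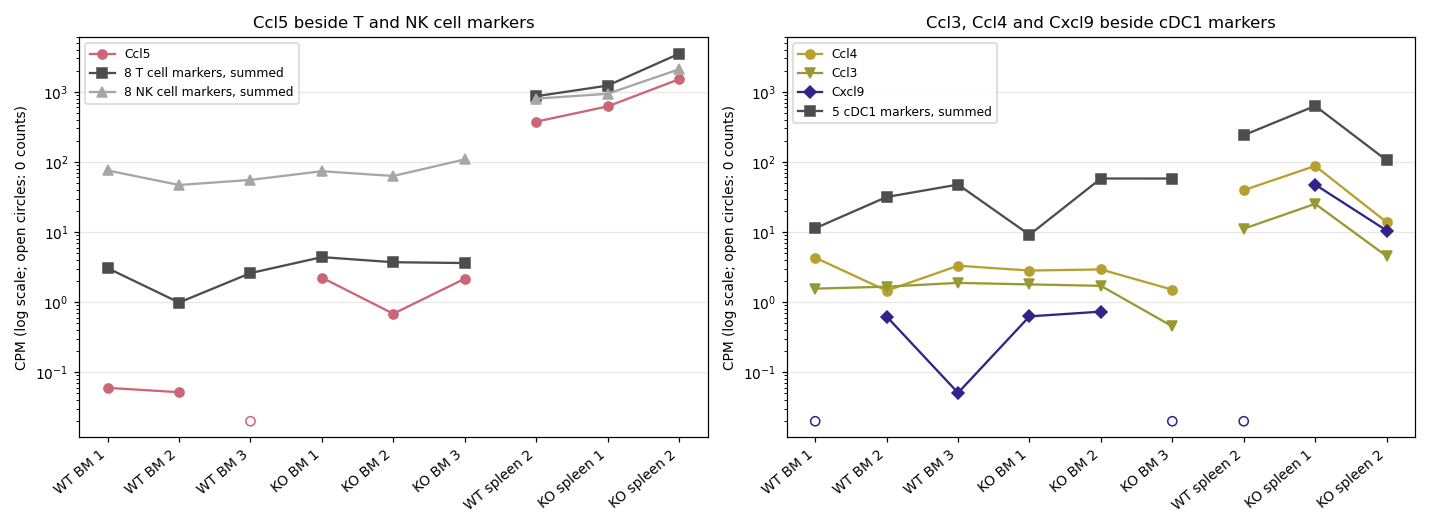
Levels of Ccl5 beside the summed T cell and NK cell markers (left), and of Ccl3, Ccl4 and Cxcl9 beside the summed cDC1 markers (right), in each sample, in CPM on a log scale, with open circles at 0 counts and lines joining samples of a tissue for the eye only. In spleen, Ccl5 and the T cell sum were both highest in DNGR-1 KO replicate 2, and Ccl3, Ccl4, Cxcl9 and the cDC1 sum in DNGR-1 KO replicate 1.

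Cxcl9 and Cxcl10, the interferon-induced ligands of Cxcr3, were low in BM, at 0 to 15 and 0 to 13 counts. Cxcl9 was counted 0, 12 and 1 times in WT BM, 14, 15 and 0 times in DNGR-1 KO BM, 0 times in WT spleen, and 845 and 248 times in DNGR-1 KO spleen. Against the limit of 3 counts in the WT spleen library, the DNGR-1 KO spleen samples were at least 265-fold and 58.8-fold higher. Cxcl10 was counted 6, 12 and 4 times in WT BM, 8, 0 and 13 times in DNGR-1 KO BM, 0 times in WT spleen, and 45 and 3 times in DNGR-1 KO spleen. DNGR-1 KO spleen replicate 1 was therefore at least 14.1-fold higher than WT spleen for Cxcl10, and replicate 2 was at the limit. The WT spleen library lacked other genes too. Of 8389 genes that reached 100 counts in each of the DNGR-1 KO spleen libraries, 509 (6.07%) were at 3 counts or fewer in WT spleen. The same count for either DNGR-1 KO spleen sample against the other spleen libraries gave 1.82% and 1.92%. Across BM, at most 1 gene was missing from a sample in this way. The part of this gap in the Cxcl9 and Cxcl10 values was not tested.

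Cxcl16 was higher in spleen than in BM, and its BM replicates spread widely. It was counted 16, 127 and 81 times in WT BM, 27, 195 and 120 times in DNGR-1 KO BM, 501 times in WT spleen, and 734 and 578 times in DNGR-1 KO spleen. These were 0.957, 6.59 and 4.12 CPM in WT BM, 1.21, 9.51 and 6.02 CPM in DNGR-1 KO BM, 29.8 CPM in WT spleen, and 41.2 and 24.5 CPM in DNGR-1 KO spleen. Replicate 1 was the lowest and replicate 2 the highest of both BM groups, and no BM sample reached the spleen samples.

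Ccl17 and Ccl22, the ligands of Ccr4, were not detected beyond a few counts. Ccl17 had 0, 6 and 4 counts in WT BM, 2, 1 and 2 counts in DNGR-1 KO BM, and 0 in all 3 spleen samples. Ccl22 had 1 count in DNGR-1 KO BM replicate 1 and 1 count in DNGR-1 KO spleen replicate 2, and 0 in the remaining 7 samples. No difference between groups was detectable at this depth for either. Genes of mature cDCs, in which Ccl17 and Ccl22 are typical, were higher in spleen for 5 of the 7 tested, among them Ccr7, the receptor for lymph node homing (log2 fold change 4.78, SE 0.59, adjusted p = 9.26e-04, edgeR's quasi-likelihood test), Relb (2.44, SE 0.38, adjusted p = 0.00259) and Cd83 (3.57, SE 0.76, adjusted p = 0.0109). Fscn1 and Cd80, the others tested, were not called by edgeR's quasi-likelihood test (adjusted p = 0.420 and 0.194). Of all genes tested, 7.28% were called higher in spleen. Ccr7 was at 83.1 CPM in WT spleen and at 117 and 316 CPM in DNGR-1 KO spleen. T cell markers were also higher in these spleen libraries, and their part in the Ccr7 values was not tested.

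Between genotypes in BM, none of the 7 members that passed the filter on low counts differed (edgeR's quasi-likelihood test, 3 against 3 samples, 0 of 7 at an adjusted p under 0.05, 2 of 7 at an unadjusted p under 0.05). The background was small as well, with 0.0307% of the 13016 genes tested called. Ccl5 had the largest difference, with a log2 fold change of 5.31 (SE 1.11, unadjusted p = 7.91e-04, adjusted p = 0.861), and was higher in 3 of 3 DNGR-1 KO samples than in any WT sample. From the pooled counts of 107 and 2, Ccl5 was 47.4-fold higher in DNGR-1 KO BM, with a 95% exact interval of 12.8 to 396 that covers counting error only. Ccl5 passed the filter on low counts only through the DNGR-1 KO samples. It was the sole member of the 7 whose BM groups did not overlap, against 4.79% of all genes tested that were higher in this way.

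By p-value Ccl9 was the next, with a log2 fold change of 0.60 (SE 0.27, unadjusted p = 0.0465, adjusted p = 0.861, edgeR's quasi-likelihood test). Ccl6 had a log2 fold change of 0.39 (SE 0.31), Cxcl16 of 0.51 (SE 0.79), Cxcl9 of 0.98 (SE 1.49), Ccl3 of -0.37 (SE 0.71) and Ccl4 of -0.32 (SE 0.58). The median over the 7 members was 0.51, beside -0.0045 over all genes tested. Ccl17, Ccl22 and Cxcl10 were too low to be tested.

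**Figure D4:**
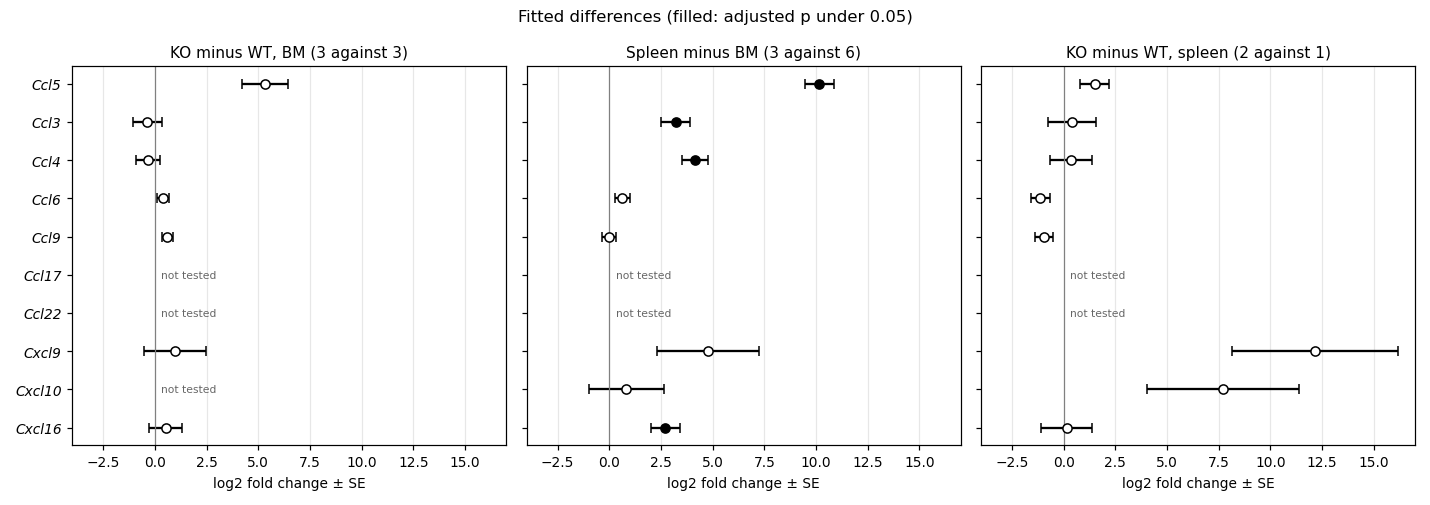
Log2 fold change and SE of each member in the edgeR fits, for DNGR-1 KO minus WT in BM, spleen minus BM, and DNGR-1 KO minus WT in spleen, where the lone WT sample was assumed to vary like the other groups. Filled points had an adjusted p under 0.05: Ccl5, Ccl4, Ccl3 and Cxcl16 between tissues, and none between genotypes.

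Between tissues, Ccl5, Ccl4, Ccl3 and Cxcl16 rose from BM to spleen, 4 of the 8 members tested and all in the same direction. Of all 13468 genes tested, 7.28% were called higher in spleen and 12.3% lower, with genotype as a covariate. Ccl5 had a log2 fold change of 10.16 (SE 0.71, adjusted p = 5.34e-05, edgeR's quasi-likelihood test). The fold was 4.14 for Ccl4 (SE 0.62, adjusted p = 0.00223), 3.21 for Ccl3 (SE 0.71, adjusted p = 0.0129) and 2.71 for Cxcl16 (SE 0.70, adjusted p = 0.0246), all on the log2 scale. These 4 were also the members whose 3 spleen samples lay above all 6 BM samples, as 9.11% of all genes tested did. Ccl3 and Cxcl16 were no longer called in the DNGR-1 KO samples alone (adjusted p = 0.0897 and 0.118), where 3 BM and 2 spleen samples remained. Cxcl16 was also lost without WT BM replicate 3 (adjusted p = 0.0534), DNGR-1 KO BM replicate 3 (0.0529) or WT spleen replicate 2 (0.0990). With the replicate number as a block, Ccl3 (adjusted p = 0.0786) and Cxcl16 (0.0574) were not called, which left 2 of the 8 members.

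Ccl6 and Ccl9 were not called between tissues, with log2 fold changes of 0.63 (SE 0.35, adjusted p = 0.256, edgeR's quasi-likelihood test) and -0.01 (SE 0.35, adjusted p = 0.991). The sign for Ccl9 turned with the scaling, and that for Ccl6 without the WT spleen sample. Cxcl9 reached 4.77 (SE 2.47, adjusted p = 0.215), and was called by DESeq2 (adjusted p = 0.0222) and without the WT spleen sample in edgeR (5.97, adjusted p = 0.0386). Cxcl10 was at 0.83 (SE 1.83, adjusted p = 0.813). The median over the 8 members was 2.96, beside -0.18 over all genes tested.

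Between genotypes in spleen, none of the 8 members tested was called, with the lone WT sample assumed to vary like the other groups (edgeR's quasi-likelihood test, 0 of 8 at an adjusted p under 0.05, 2 of 8 unadjusted, and 1 of 8 by DESeq2). Of all genes tested, 10.8% were called in this comparison. Cxcl9 had the largest fitted value, 12.15 on the log2 scale (SE 4.03, adjusted p = 0.101), which depends on the prior count since WT spleen was at 0. By DESeq2 it was called (adjusted p = 0.00123). Ccl5 was higher in both DNGR-1 KO samples, by 1.51 (SE 0.71, adjusted p = 0.229). Ccl6 and Ccl9 were lower in both, by -1.14 (SE 0.46, adjusted p = 0.173) and -0.94 (SE 0.42, adjusted p = 0.214). The values of Ccl3 (0.42, SE 1.15), Ccl4 (0.36, SE 1.03) and Cxcl16 (0.14, SE 1.23) were within their errors of 0. Cxcl10 had a fitted value of 7.70 (SE 3.66, adjusted p = 0.236).

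Whether the genotype difference itself differed between tissues was tested as (DNGR-1 KO spleen minus WT spleen) minus (DNGR-1 KO BM minus WT BM), under the same assumption on the lone WT spleen sample. No member was called (edgeR's quasi-likelihood test, 0 of 8 at an adjusted p under 0.05, 4 of 8 unadjusted, and 3 of 8 by DESeq2), while 8.85% of all genes tested were. Ccl9 had a log2 value of -1.55 (SE 0.51, adjusted p = 0.114), Ccl6 of -1.53 (SE 0.56, adjusted p = 0.151) and Ccl5 of -3.82 (SE 1.21, adjusted p = 0.0972). The DESeq2 calls were Ccl5 (adjusted p = 0.0217), Ccl9 (0.0387) and Cxcl9 (0.0143).

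Receptors of these ligands were measured in the same cells. Ccr1, which binds Ccl3, Ccl5, Ccl6 and Ccl9, was at 24.6, 23.8 and 28.3 CPM in WT BM, 35.3, 73.1 and 52.7 CPM in DNGR-1 KO BM, 89.3 CPM in WT spleen, and 32.9 and 17.6 CPM in DNGR-1 KO spleen. All DNGR-1 KO BM samples lay above the WT BM samples, as they did for 4.79% of all genes tested. In spleen, with 2 samples against 1 and no share of all genes computed, Ccr1 was lower in both DNGR-1 KO samples than in WT. Its log2 fold change was 1.07 in BM (SE 0.30, adjusted p = 0.861, edgeR's quasi-likelihood test) and -1.82 in spleen (SE 0.50, adjusted p = 0.0525). Cxcr3, the receptor of Cxcl9 and Cxcl10, was at 4.19 to 21.7 CPM in BM, 51.7 CPM in WT spleen, and 98.3 and 253 CPM in DNGR-1 KO spleen. Cxcr6, the receptor of Cxcl16, was at 0 to 1.76 CPM in BM, 17.6 CPM in WT spleen, and 103 and 117 CPM in DNGR-1 KO spleen.

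Cxcr3 and Cxcr6 were higher in spleen, with log2 fold changes of 3.17 (SE 0.58, adjusted p = 0.00546, edgeR's quasi-likelihood test) and 6.05 (SE 0.88, adjusted p = 0.00199). Cxcr3 and Cxcr6 are also expressed by T cells, whose markers rose in the same samples, and their part in these values was not tested. Ccr4 had 0 counts in all 9 samples. Ackr2, a scavenger of CC chemokines, did not exceed 1 count. Ccr3 was at 0 to 32 counts in 8 samples and at 396 counts in DNGR-1 KO spleen replicate 2.

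Among 30 other chemokine ligands, 19 had 3 counts or fewer in every sample, and 16 of these were at 0 throughout, among them Ccl1, Ccl7 and Cxcl13. Xcl1, the ligand of Xcr1, went from 0 to 2 counts in BM to 1471 counts in WT spleen and 1044 and 1035 counts in DNGR-1 KO spleen, and was called higher in spleen (log2 fold change 10.99, SE 0.80, adjusted p = 6.43e-05, edgeR's quasi-likelihood test). It passed the filter on low counts only through spleen. T and NK cell markers were also higher in these spleen libraries, and their part in the Xcl1 values was not tested. Pf4, the platelet chemokine, went from 48 to 679 counts in BM to 0 in all spleen samples (log2 fold change -10.84, SE 1.87, adjusted p = 0.00739). The megakaryocyte genes Itga2b (adjusted p = 0.00295) and Gp9 (adjusted p = 0.0229) were also called lower in spleen by edgeR's quasi-likelihood test, with at most 1 count there. Gp1ba, the remaining one tested, was not called and had 77 counts in DNGR-1 KO spleen replicate 2. Ccl27a was even across the samples, at 2.58 to 4.77 CPM, and was called in no comparison. Ccl25 was at 2.85 to 7.78 CPM in BM, at 0 in WT spleen and DNGR-1 KO spleen replicate 1, and at 6.10 CPM in DNGR-1 KO spleen replicate 2.

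Of 11 interferon-induced genes, 6 were called higher in spleen and none lower, against 7.28% of all genes tested called higher. Irf1, an interferon-induced transcription factor, had a log2 fold change of 1.48 (SE 0.27, adjusted p = 0.00517, edgeR's quasi-likelihood test). In BM no gene of this list was called for genotype. In spleen, with the lone WT sample assumed to vary like the others, Isg15 was called higher in DNGR-1 KO (7 counts in WT, 303 and 265 in DNGR-1 KO, adjusted p = 0.0133) and Ifi44 lower (162 counts in WT, 0 in both DNGR-1 KO samples, adjusted p = 0.0253). These were 2 of the 11 genes, against 10.8% of all genes tested.

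The genes whose log2 CPM pattern over the 9 samples lay nearest to each member were found by the root mean square difference of centred values. Nearest to Ccl5 were Cd8b1 (0.53), Gimap4 (0.66) and Il2rb (0.93). Cxcl16 was nearest to H2-Eb1 (0.52), Cd74 (0.56) and Anpep (0.58), of which H2-Eb1 and Cd74 encode the beta chain and the invariant chain of MHC class II. Ccl6 was nearest to Anxa2 (0.16), Lsp1 (0.18) and Tep1 (0.19), and Ccl9 to Anxa5 (0.16), Fdps (0.17) and Milr1 (0.18). Ccl4 was nearest to Errfi1 (0.52), followed by Ccl3 (0.63) and 4930455G09Rik (0.68), and Ccl3 to 1300014J16Rik (0.45), Errfi1 (0.45) and Zfp69 (0.61). The distances of Cxcl9 were larger, at 1.32 for Cyp7b1, 1.33 for Als2cl and 1.35 for Pald1, and with a smaller prior count its nearest genes were different. Cxcl10 was nearest to Pkd2 (0.53), Gm35035 (0.60) and Nrip2 (0.63). The 9 points fall into 2 tissues and are not independent, so the distances are descriptions of these libraries.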

How the data were processed

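Pre-cDCs (lineage-negative, CD135+ CD43+) of 9 samples were sequenced as ribosome-depleted total RNA on DNBSEQ. The authors deposited expected counts per gene, not normalized, of which 25.6% of the nonzero values were not whole. The submitters' processing notes name Trimmomatic 0.36, STAR 2.5.2, RSEM 1.3.0, DESeq2 1.18.1 and GRCm38. A table of variance-stabilized values was also deposited and was not used here.

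Counts were rounded to whole numbers, since the design had been written for raw counts. Libraries were scaled by TMM, and CPM are counts per 1000000 of the scaled total. The tests used edgeR 4.0.16 under R 4.3.3 (filterByExpr, quasi-likelihood test, Benjamini-Hochberg adjustment over all genes tested, called at an adjusted p under 0.05), on the 6 BM samples for genotype, and on all 9 samples for tissue (genotype as covariate) and for spleen genotype and its difference from BM (fit of 4 groups). Each fit was tested on simulated counts with 200 changed genes. In the BM fit, 70.5% of genes changed by a log2 value of 2 and 98.9% of those changed by 4 were called. For tissue these were 45.4% and 64.3%, for spleen genotype 4.17% and 47.4%, and for the difference between tissues 5.10% and 39.4%. The study scored chromosome 1 genes linked to CD45 and regressed the score out; this was run as an alternative. Other alternatives were DESeq2 1.42.0, limma-voom (limma 3.58.1), RLE scaling, filters on low counts, a replicate block, DNGR-1 KO samples alone and leaving out each sample. The chi-square per gene between replicates found no duplicate library.

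Symbols, positions and exon lengths came from GENCODE M21 (GRCm38), which matched 51719 of the 51912 identifiers and may differ from the authors' annotation. Strand use in the authors' counting is not given in the sources used here, so overlapping antisense genes may share reads.

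Groups came from the labels, which for WT samples disagree between fields on the congenic marker (CD45.1 or CD45.2). The members, gene lists and tests were chosen with earlier results of these data known. Genes named are the members, other ligands above 3 counts in every sample of a group of 2 or 3 samples, receptors of the members, up to 4 called genes of each list, lists' genes at 3 counts or fewer throughout, Clec9a, and the 3 nearest genes of each member. Xcr1, Cd8b1, Nkg7, Flt3, Spn, Ighm, Cd79b, Ms4a1, Cd5, Trac, Cd3e, Gp1ba and the ligands at 0 given as examples were added after their values were seen. The same holds for Klrb1c, Ncr1, Ly6g, Fscn1, Cd80 and the choice of S100a9 and Gata2 as examples. Some items these rules select are not reported here. The labels do not say which samples share mice, and p-values measure only the spread between these samples. Intervals and limits cover counting error only.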

Additional observations from a re-analysis of the deposited data

Results flagged for a closer look

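A genotype difference that differed between tissues, by edgeR's quasi-likelihood test of that difference with the lone WT spleen sample assumed to vary like the other groups, was found for 4 of the 84 tested genes of the lists other than the members (4.76%, against 8.85% of all genes tested) and for none of the 10 chemokine ligands. Ccr1, a receptor of Ccl3, Ccl5, Ccl6 and Ccl9, had a log2 value of -2.89 (SE 0.61, adjusted p = 0.0203), as its level was higher in all DNGR-1 KO BM samples than in WT BM and lower than WT spleen in each DNGR-1 KO spleen library. Isg15, an interferon-induced gene, had a value of 5.07 (SE 1.08, adjusted p = 0.0212), with 52 to 82 counts in BM, 7 counts in WT spleen, and 303 and 265 counts in DNGR-1 KO spleen. Cd209a, a cDC2 marker, had a value of -1.87 (SE 0.39, adjusted p = 0.0180), with 263 to 530 CPM in BM, 1190 CPM in WT spleen, and 507 and 501 CPM in DNGR-1 KO spleen. Cox6a2, a plasmacytoid DC marker, had a value of -7.14 (SE 1.41, adjusted p = 0.0191), with 86 to 203 counts in BM, 17 in WT spleen and 0 in both DNGR-1 KO spleen samples. A share below that of all genes is not a result about the lists, and of the 10 chemokine ligands only 8 were tested. All 4 differences rest on the single WT spleen library, which lacked 6.07% of the genes well counted (100 or more) in both DNGR-1 KO spleen libraries. The 4 were not among the genes it lacked, with 1500 counts of Ccr1, 7 of Isg15, 20034 of Cd209a and 17 of Cox6a2 there. The part of this gap in the 4 values was not tested.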

How the results depend on the processing

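The count of members called between genotypes in BM was 0 under every alternative run, including the chromosome 1 score and the fit of all 9 samples, and when each sample was left out. Between tissues 4 members were called, 2 with at least 10 counts in every sample (4 tested), 2 under the replicate block, 2 in the DNGR-1 KO samples alone, and 3 to 4 when each sample was left out. Between genotypes in spleen the count of 0 became 1 under DESeq2 and 0 to 1 when each sample was left out, where Ccl6 passed without DNGR-1 KO BM replicate 1 (adjusted p = 0.04998), Ccl5 without DNGR-1 KO spleen replicate 1 (0.0483) and Cxcl9 without DNGR-1 KO spleen replicate 2 (0.0212). For the difference between tissues the count of 0 became 3 under DESeq2 and 0 to 2 when each sample was left out, through Ccl6 (adjusted p = 0.0235) and Ccl9 (0.0475) without DNGR-1 KO BM replicate 1, Ccl5 (0.0462) without DNGR-1 KO BM replicate 2, Ccl9 (0.0295) without DNGR-1 KO spleen replicate 1, and Ccl5 (0.0169) and Cxcl9 (0.0454) without DNGR-1 KO spleen replicate 2. The causes were not tested.

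Same-numbered WT and DNGR-1 KO BM samples correlated in their deviations from the group means at 0.103, 0.0990 and -0.0815. Differently numbered ones did so at -0.249 to 0.194. With 3 samples in each group, these correlations cannot decide whether samples of a number share mice, and the labels do not say. Single genes differed in this. For replicates 1 to 3, S100a9, a neutrophil marker, had 2373, 222 and 792 counts in WT BM and 2855, 268 and 865 in DNGR-1 KO BM. Gata2, a basophil or mast cell marker, had 134, 185 and 193 against 245, 21 and 3. The main tests did not pair the samples, and pairing by number was run only as the replicate block. Under the replicate block, Ccl3 (adjusted p = 0.0786) and Cxcl16 (0.0574) were not called between tissues, and genes called went from 2631 to 1246 between tissues, from 1457 to 825 for spleen genotype and from 1192 to 635 for the difference between tissues, while BM kept a count of 4.

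Log2 values that turned sign were all of uncalled members. Ccl9 between tissues became 0.053 under DESeq2 and RLE size factors, 0.010 with at least 10 counts in every sample and 0.047 under the block, Cxcl10 became -0.26 under limma-voom, and Ccl6 -0.035 in the DNGR-1 KO samples alone. Ccl3 and Ccl4 for spleen genotype became -0.17 and -0.28 under limma-voom and -0.23 and -0.70 under the block, and for the difference between tissues Ccl4 became -0.054 under limma-voom and -0.55 under the block, and Cxcl16 0.96 under the block. With each sample left out, the ranges that crossed 0 were, in BM, -0.65 to 0.041 for Ccl3, -0.65 to 0.022 for Ccl4 and -0.091 to 1.13 for Cxcl16. Between tissues they were -0.034 to 0.92 for Ccl6, -0.68 to 0.32 for Ccl9 and -2.41 to 1.95 for Cxcl10. For spleen genotype they were -1.28 to 1.175 for Ccl3, -1.49 to 1.15 for Ccl4 and -0.26 to 0.46 for Cxcl16. For the difference between tissues they were -0.93 to 1.54 for Ccl3, -1.20 to 1.46 for Ccl4 and -1.02 to 0.26 for Cxcl16.

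Genes called in BM went from 4 to 11 under DESeq2, 10 without a filter, and 2 to 15 with each sample left out (15 without DNGR-1 KO BM replicate 1). Between tissues they were 1336 in the DNGR-1 KO samples alone. For spleen genotype they were 2727 under DESeq2, 45 under limma-voom, 378 with at least 10 counts, and 3037 and 2749 without DNGR-1 KO spleen replicate 1 or 2. For the difference between tissues they were 2190, 0 (2702 at an unadjusted p under 0.05), 167, 2704 and 2456 in the same order. The median over all genes between tissues was -0.18, and -0.12 with RLE size factors. Ccl17 and Ccl22 had at most 6 counts in any sample, so no difference was detectable for them.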

Other observations

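Ccl24, a ligand of Ccr3, was chosen after its values were seen. It had 127 counts in DNGR-1 KO spleen replicate 2 and at most 1 count in the other 8 samples. The same sample held 396 counts of Ccr3, against at most 32 in the others, and was also the spleen sample with the most Ccl5.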
